A study of Mus musculus with 12 samples.

Results

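Metallothioneins and the genes that carry, methylate and conjugate arsenic were followed in mouse prostate tumors grown with or without inorganic arsenic (iAs) in the drinking water. The set holds 10 genes of the 55401 in the deposited table, picked by gene symbol, and all 10 passed the filter on low counts that left 20818 genes to test. They are the metallothioneins Mt1, Mt2 and Mt3, the zinc sensor Mtf1, the zinc exporter Slc30a1, the arsenic methyltransferase As3mt, the glutathione transferases Gsto1 and Gstp1, the efflux pump Abcc1 and the aquaglyceroporin Aqp9.

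RNA was sequenced from 12 tumors of TC2Ras, a mouse prostate cancer cell line, in 4 groups of 3. For Control, TC2Ras cells were implanted without other cells into mice drinking water with 0 ppb iAs, and for A300 the same cells into mice given 300 ppb iAs. ASC tumors grew from TC2Ras cells mixed with 1% ASC-GFP cells at 0 ppb iAs, and ASC300 tumors from that mixture at 300 ppb. ASC-GFP cells are primary adipose-derived stromal cells of transgenic mice that carry GFP under the ubiquitin C promoter. In every group 125000 cells were implanted under the skin, all hosts had eaten a low-arsenic purified diet for 2 weeks beforehand, and tumors were taken on day 21. The 2 flank tumors of a mouse were combined, so that a tumor sample stands for 1 mouse. The strain, sex and age of the hosts are not given in the sources used here.

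Metallothioneins are small cysteine-rich proteins that bind zinc, copper and cadmium and can bind trivalent arsenic through their thiols. When free zinc rises, the zinc finger protein encoded by Mtf1 binds metal response elements (MREs) and switches on Mt1, Mt2 and Slc30a1, which makes these genes a common readout of metal exposure. Inorganic arsenic enters cells through aquaglyceroporins and other carriers, is methylated by As3mt, is reduced with the help of glutathione and omega class transferases such as Gsto1, and leaves as glutathione conjugates through pumps such as Abcc1. Most methylation takes place in the liver. Mt3 is best known from the brain and, unlike Mt1 and Mt2, responds little to metals in most tissues.

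Total counts per tumor lay between 39157647 and 55168642. Levels are given as CPM, the counts of a gene scaled to a common library size after edgeR's TMM normalization, and comparisons between genes as CPM per kilobase of exon. Along the first principal component of all genes (17.27% of the variance) Control replicate 1 stood apart at 101.8, against -64.88 to 22.53 in the other 11 tumors. The labels name adipose-derived stromal cells as the cell type of all samples, whereas by the study's methods whole tumors were cut out, and the samples are read here as tumors. Fibroblast and stromal genes summed to 5360 to 10100 CPM and macrophage genes to 695 to 1400 CPM in these tumors. Of the 8 epithelial marker genes all were tested, but Epcam reached only 1.34 CPM and Cdh1 2.51 CPM. Krt5 was at 0 in 8 tumors and Krt14 and Cldn4 in 1 each. Their summed level was 67.2 to 363 CPM in Control, 98.1 to 121 in A300, 32 to 49 in ASC and 27.3 to 42.2 in ASC300. It was thus lower in every tumor with ASC than in every tumor without. Krt8 held most of the sum in Control replicate 1 (363 CPM). Changes in bulk tissue cannot separate a different share of a cell type from a different level of RNA per cell, and this holds for comparisons across ASC levels too.

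The promoters of the zinc-responsive genes are shown first, because Mt1, Mt2 and Slc30a1 are the classical targets of the Mtf1 protein and Mt3 is their neighbor on chromosome 8. Each window is the 250 bases before the RefSeq start of the gene (build GRCm38.p6), on the strand of the gene. Capitals mark every match to the core of the metal response element, TGCACNC or TGCGCNC, on either strand:
Mt1, chr8:94178839-94179088, plus strand: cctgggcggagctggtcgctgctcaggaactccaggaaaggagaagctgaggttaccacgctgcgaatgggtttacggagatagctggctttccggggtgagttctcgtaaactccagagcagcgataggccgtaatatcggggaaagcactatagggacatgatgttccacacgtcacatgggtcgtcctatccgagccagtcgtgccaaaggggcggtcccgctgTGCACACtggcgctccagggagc
Mt2, chr8:94172368-94172617, plus strand: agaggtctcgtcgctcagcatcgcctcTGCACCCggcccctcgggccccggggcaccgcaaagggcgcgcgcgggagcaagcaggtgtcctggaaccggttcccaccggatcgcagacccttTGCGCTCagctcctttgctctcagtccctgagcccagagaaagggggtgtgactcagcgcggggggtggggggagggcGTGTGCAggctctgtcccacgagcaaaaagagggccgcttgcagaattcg
Mt3, chr8:94152357-94152606, plus strand: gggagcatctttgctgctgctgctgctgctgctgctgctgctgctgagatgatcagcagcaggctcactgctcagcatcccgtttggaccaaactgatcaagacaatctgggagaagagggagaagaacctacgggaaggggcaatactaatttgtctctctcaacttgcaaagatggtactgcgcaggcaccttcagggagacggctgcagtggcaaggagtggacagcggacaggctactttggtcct
Slc30a1, chr1:191906531-191906780, plus strand: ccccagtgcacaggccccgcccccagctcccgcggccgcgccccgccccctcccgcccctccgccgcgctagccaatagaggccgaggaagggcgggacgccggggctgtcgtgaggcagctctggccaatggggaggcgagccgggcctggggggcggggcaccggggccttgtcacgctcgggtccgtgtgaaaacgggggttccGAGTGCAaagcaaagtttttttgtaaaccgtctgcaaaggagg

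The Mt2 window held 3 matches, beginning 223, 128 and 50 bases before the start. The Mt1 window held 1, at 23 bases, and that of Slc30a1 1, at 43 bases. No match stood in the windows of Mt3, Mtf1, Aqp9, Gstp1, As3mt or Gsto1, which says only that these letters are not in them. Abcc1 had no entry in the promoter table, so that 9 of the 10 genes were searched. Among 32841 mouse promoters of this length, 21.4% held at least 1 match and 5.18% at least 2. The antioxidant response element core TGACNNNGC, also searched on both strands and present in 10.2% of promoters, was found once in Mt2 and once in Slc30a1 and in none of the other 7, Gstp1 and Gsto1 included. The annotated start used matters for this count: in the longest GENCODE transcripts, 4 further MRE cores stood in the 229 bases before the start codon of Mt1, 3 in the 184 bases of Mt2 and 3 in the 193 bases of Mt3, the first of these being TGCACAC at chr8:94152634-94152640. All of them lay upstream of the most downstream annotated start of the gene.

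Mt1 (ENSMUSG00000031765, chr8:94179082-94180327) and Mt2 (ENSMUSG00000031762, chr8:94172664-94173568), the ubiquitous metallothioneins, were abundant in every tumor. Mt1 was at 116, 156 and 185 CPM in the Control tumors and at 253, 196 and 166 CPM in the A300 tumors. It was at 178, 129 and 186 CPM in ASC and at 215, 163 and 209 CPM in ASC300. The lowest A300 tumor lay below the highest Control tumor, and the ASC and ASC300 groups overlapped in the same way. The group means were 152 ± 34.8 CPM in Control, 205 ± 43.8 in A300, 164 ± 31.1 in ASC and 196 ± 28.9 in ASC300 (SD, n = 3 each). Mt2 was at 109, 135 and 162 CPM in Control and 236, 150 and 147 CPM in A300. In ASC it was at 172, 132 and 175 CPM, and in ASC300 at 203, 151 and 199 CPM. As for Mt1, A300 replicate 1 was the highest of all 12 tumors and Control replicate 1 the lowest.

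**Figure D1:**
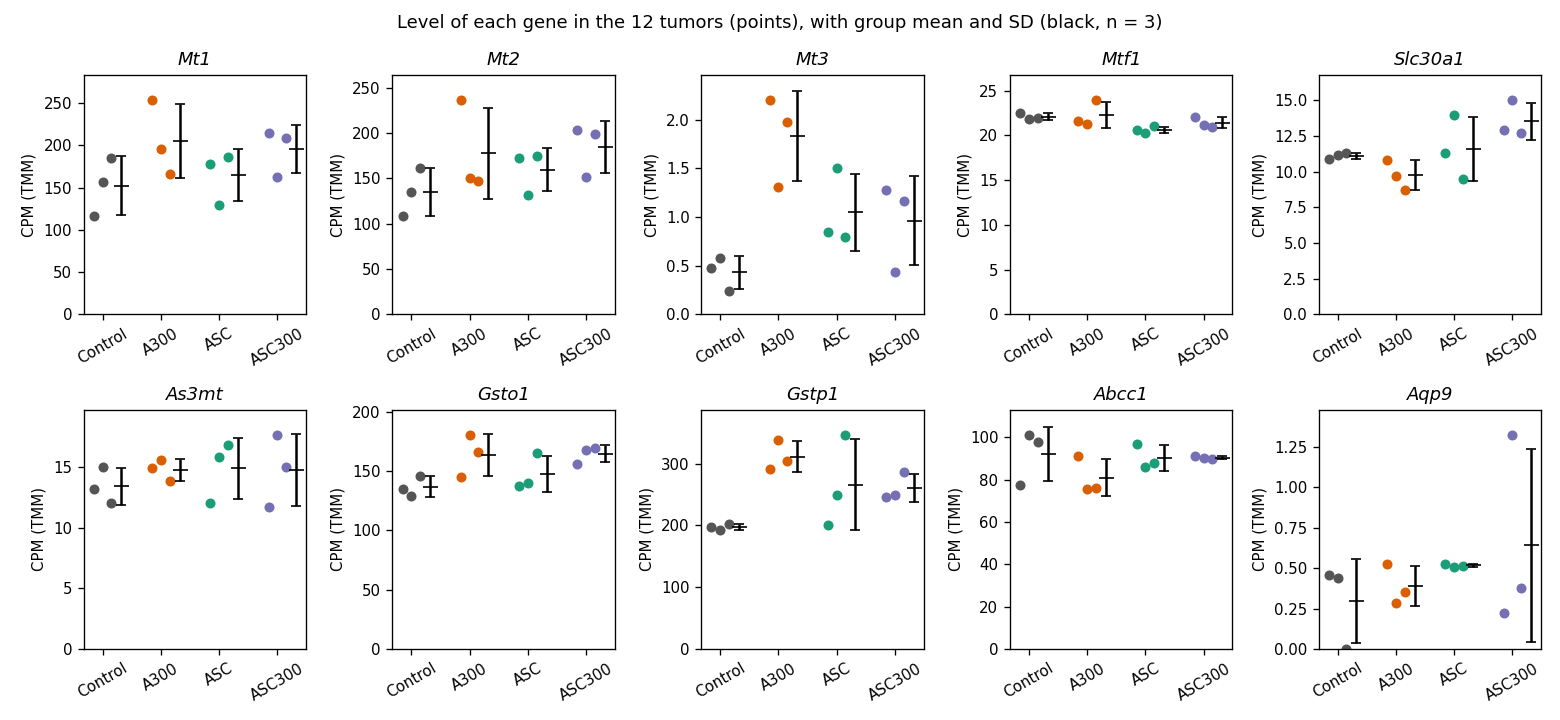
Level of each of the 10 genes in CPM (TMM scaled; vertical axes from 0) in the 12 tumors (points, colored by group), with the group mean and SD in black (n = 3). Mt3 and Gstp1 show Control and A300 tumors apart (0.239 to 0.576 against 1.31 to 2.2 CPM, and 193 to 203 against 291 to 339 CPM), whereas the points of Mt1 and Mt2 overlap between all groups.

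Differences were tested with edgeR's quasi-likelihood test in 1 model of all 12 tumors, and a call required a change of at least 1.5-fold with a p under 0.05 after Benjamini-Hochberg adjustment over all genes tested. In A300 against Control the call background was 1.06% of all genes (0.701% up and 0.355% down), and 2 of the 10 genes (20%) were called, Mt3 and Gstp1, both up. The median log2 fold change was 0.31 over the 10 genes and -0.03 over all genes tested, with 8 of the 10 higher and 2 lower in A300. Mt1 was 1.35-fold higher in A300 (log2 fold change 0.43, SE 0.20, 95% confidence interval 0 to 0.86, adjusted p = 0.207) and did not pass. Nor did Mt2, at 1.31-fold (log2 fold change 0.39, interval -0.04 to 0.82, adjusted p = 0.253). Without A300 replicate 1 the log2 fold change of Mt1 was 0.26 and that of Mt2 0.14. Without Control replicate 1 the values were 0.29 and 0.28, and without Control replicate 3 they were 0.62 and 0.57. Over the 12 fits that left out 1 tumor, Mt1 ran from 0.26 to 0.62 and Mt2 from 0.14 to 0.57.

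Mt3 (ENSMUSG00000031760, chr8:94152607-94154146), the brain-associated metallothionein, rose in A300 from a low level. It had 23, 30 and 11 counts in the Control tumors, or 0.475, 0.576 and 0.239 CPM. In the A300 tumors it had 88, 64 and 112 counts, or 2.2, 1.31 and 1.98 CPM. Every A300 tumor lay above every Control tumor. In ASC it was at 0.85, 1.5 and 0.792 CPM, and in ASC300 at 1.28, 0.435 and 1.17 CPM, so that the groups with ASC lay between the other two in their means (1.05 ± 0.393 and 0.962 ± 0.461 CPM, against 0.43 ± 0.173 in Control and 1.83 ± 0.465 in A300, SD, n = 3). The change from Control to A300 was 4.22-fold (95% confidence interval 1.99 to 8.95; log2 fold change 2.08, SE 0.50, adjusted p = 0.0482). The log2 fold change stayed between 1.74 and 2.37 in all 22 fits that were run, but the adjusted p ran from 0.00219 to 0.186 and the call held in 8 of them. It was lost in 10 of the 12 fits that left out 1 tumor, namely each of the 12 except ASC replicate 1 and ASC replicate 3 (adjusted p = 0.0555 to 0.186 by edgeR), and with a correction for GC content (log2 fold change 1.74, adjusted p = 0.152).

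Markers of other cell types were read beside Mt3. Of 8 astrocyte and oligodendrocyte genes all passed the filter, and their summed level was 25.1 to 50.4 CPM in Control, 76.2 to 108 in A300, 48.7 to 55.5 in ASC and 42.7 to 48.2 in ASC300. The sum was thus highest in the A300 tumors, the group with the highest mean of Mt3. Mt3 itself did not set every A300 tumor apart from the tumors with ASC. It was at 1.5 CPM in ASC replicate 2 and at 1.31 CPM in A300 replicate 2. Of these 8 genes, 7 were higher in every A300 tumor than in every Control tumor (all but Slc1a3), against 14.5% of all genes. Mbp, a myelin protein also made by Schwann cells, was called up in A300 (log2 fold change 1.22, SE 0.18, adjusted p = 0.037). The astrocyte markers Gfap and Aqp4 and the oligodendrocyte marker Mog were low, at most 4.66, 1.6 and 1.25 CPM, and at 0 in 1 tumor, Control replicate 1. Their log2 fold changes were 2.82 for Gfap (adjusted p = 0.0785), 1.66 for Aqp4 (adjusted p = 0.287) and 1.20 for Mog (adjusted p = 0.501). Without Control replicate 1 the log2 fold change of Mt3 was 2.17 (adjusted p = 0.0853).

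The 8 neuronal genes were all tested. Of these, 7, all but Gad1, were higher in every A300 tumor than in every Control tumor, against 14.5% of all genes. Stmn2, a growth cone protein, was called up in A300 (log2 fold change 1.23, SE 0.30, adjusted p = 0.0485). Snap25 and Rbfox3 were at 0 in Control replicate 1 only and had log2 fold changes of 1.89 and 2.29 (adjusted p = 0.227 and 0.127). The summed level was 42 to 63 CPM in Control, 77.3 to 119 in A300, 98.4 to 126 in ASC and 99.9 to 119 in ASC300. Tubb3, a tubulin, made up most of this sum in the tumors with ASC, at 60.1 to 93.1 CPM in ASC and 68.2 to 88.8 in ASC300. Without Tubb3 the neuronal genes came to 14.2 to 33.0 CPM in Control and 46.4 to 69.7 in A300. In ASC they came to 33.0 to 38.2 CPM and in ASC300 to 27.9 to 31.7. Tubb3 was taken off after its values were seen, so a likeness of this sum to Mt3 was not tested. With all 8 genes summed, the A300 tumors did not lie above the tumors with ASC. The 7 adipocyte genes, all tested, were each lower in every A300 tumor than in every Control tumor (15.4% of all genes were) with 0 calls, and summed to 178 to 390 CPM in Control, 60.6 to 97.1 in A300, 55.5 to 792 in ASC and 42.2 to 78.4 in ASC300. Plin1, which coats fat droplets, had a log2 fold change of -3.00 (SE 1.28, adjusted p = 0.175). Of the 7 macrophage genes, all tested, 3 (Cd68, C1qa and C1qb) lay higher in A300 without overlap, 0 lay lower and 0 were called. C1qa passed the adjusted p (0.045 by edgeR) at a log2 fold change of 0.47, short of 1.5-fold. The summed macrophage level overlapped, at 695 to 986 CPM in Control and 950 to 976 in A300. Skeletal muscle genes summed to 1730 CPM in A300 replicate 1, the tumor highest in Mt1, Mt2 and Mt3, and to 1680 CPM in Control replicate 2, against 4.34 to 354 CPM in the other 10 tumors. The part of such cells in the values of Mt1, Mt2 and Mt3 was not tested. The genes whose log2 CPM followed Mt3 most closely over the 12 tumors were Atp6v1g2 (Pearson's r 0.93), Slc25a18 (0.93), Shank1 (0.91), Car11 (0.89) and Cystm1 (0.88), given as a description of tumors that share 4 groups.

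**Figure D2:**
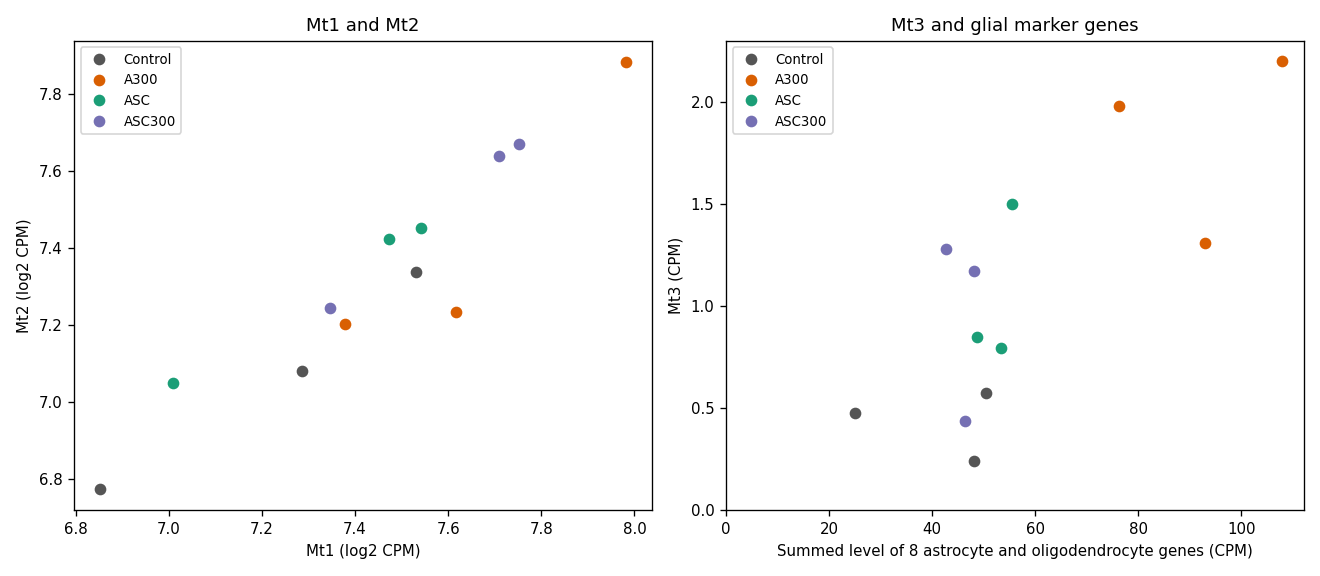
Left, log2 CPM of Mt2 against that of Mt1 in the 12 tumors, colored by group; the points lie along 1 line (r = 0.942) from Control replicate 1 at the lower end to A300 replicate 1 at the upper end. Right, CPM of Mt3 against the summed CPM of 8 astrocyte and oligodendrocyte genes; the A300 tumors lie at 76.2 to 108 CPM on the horizontal axis, and all other tumors at 55.5 CPM or lower.

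Mt1 and Mt2 rose and fell together from tumor to tumor. Their log2 CPM correlated with Pearson's r = 0.942 over the 12 tumors (two-sided permutation p = 1e-05, the smallest that 100000 resamples can give, adjusted over 6 pairs 6e-05) and Spearman's rho = 0.909 (permutation p = 0.00017, adjusted 0.00102). With the group mean taken off each tumor r was 0.954, and without the 2 tumors farthest from the median of Mt1 it was 0.920 (permutation adjusted p = 0.00138). The count ratio of Mt2 to Mt1 stayed between 0.766 and 1.03, with 0.867 to 0.947 in Control, 0.766 to 0.934 in A300, 0.939 to 1.03 in ASC and 0.931 to 0.952 in ASC300. The highest of the 12 tumors had 2.19 times the level of the lowest for Mt1 and 2.16 times for Mt2. Other genes close to Mt1 were Cd9 (r 0.91), AC114990.1 (0.91), Cck (0.90), Tnfrsf23 (0.90) and Csdc2 (0.88). Close to Mt2 were Cck (0.90), Fam219b (0.88), Tmem74b (0.87), Slc38a7 (0.86) and Anpep (0.86).

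The other genes of the zinc axis did not follow the pair. Mtf1 (ENSMUSG00000028890, chr4:124802104-124849800) had the narrowest range of the 10 genes, 20.3 to 23.9 CPM, the highest tumor being 1.18 times the lowest. Its log2 fold change was 0.01 in A300 against Control (95% confidence interval -0.19 to 0.21, adjusted p = 0.951) and 0.05 in ASC300 against ASC (interval -0.15 to 0.25, adjusted p = 1). The zinc exporter Slc30a1 (ENSMUSG00000037434, chr1:191906767-191913247) was at 10.9, 11.2 and 11.3 CPM in Control and at 10.8, 9.73 and 8.72 CPM in A300. It was at 11.3, 14 and 9.51 CPM in ASC and at 12.9, 15 and 12.7 CPM in ASC300. The A300 tumors lay just below the Control tumors without overlap, as 15.4% of all genes did (14.5% lay above), and the difference did not pass (log2 fold change -0.19, interval -0.54 to 0.15, adjusted p = 0.515). In A300 against Control, 3 of the 10 genes had groups that did not overlap (Mt3 and Gstp1 higher, Slc30a1 lower), against 29.9% of all genes. The correlation of Slc30a1 with Mt1 was -0.140 and with Mt2 0.040, that of Mtf1 with Mt1 -0.068 and with Mt2 -0.184, and that of Slc30a1 with Mtf1 -0.529, all with a permutation p adjusted over the 6 pairs of 0.225 or higher. Spearman's rho for these 5 pairs lay between -0.378 and 0.049 (adjusted permutation p of 0.686 or higher).

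Gstp1 (ENSMUSG00000060803, chr19:4035407-4037985, minus strand), the pi class transferase that joins glutathione to electrophiles, was called up in A300. It was at 197, 193 and 203 CPM in the Control tumors and at 291, 339 and 304 CPM in the A300 tumors. In ASC it was at 201, 250 and 346 CPM, and in ASC300 at 246, 249 and 286 CPM. The Control tumors lay close together and below all A300 tumors, whereas the ASC tumors spanned the levels of both. The change from Control to A300 was 1.58-fold (95% confidence interval 1.25 to 1.98; log2 fold change 0.66, SE 0.15, adjusted p = 0.0453). Its lower bound lies under the 1.5-fold limit of the call. The log2 fold change ran from 0.48 to 0.70 over the 22 fits and the adjusted p from 0.000725 to 0.19, and 10 fits called the gene. The call was lost with the same 10 tumors left out one at a time as for Mt3 (adjusted p = 0.0568 to 0.19 by edgeR) and with the GC correction, where the log2 fold change was 0.48 (adjusted p = 0.146).

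Gstp1 has near copies that can share its reads, Gstp2, Gstp3 and the pseudogene Gstp-ps. Gstp1 took 84.2% to 92% of the summed CPM of the 4 genes in every tumor. Gstp2 was at 25.2, 6.56 and 14 CPM in Control and 10.9, 39.6 and 14 CPM in A300, an overlapping spread (log2 fold change 0.50, SE 0.49, adjusted p = 0.593). Gstp-ps was at 9.42, 9.71 and 12.5 CPM in Control and 17.5, 18.4 and 14.5 CPM in A300, with a log2 fold change of 0.67 close to that of Gstp1 and no call (adjusted p = 0.106). With the 4 genes summed, the log2 fold change was 0.64 (SE 0.15, adjusted p = 0.045), and the sum was called as well.

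Gsto1 (ENSMUSG00000025068, chr19:47854970-47864790), the omega class transferase that reduces pentavalent arsenic, moved in the same direction by less. It was at 135, 129 and 146 CPM in Control and 145, 180 and 166 CPM in A300, and at 137, 140 and 165 CPM in ASC and 156, 168 and 169 CPM in ASC300. The groups touched in both pairs, since 1 A300 tumor lay below the highest Control tumor and 1 ASC300 tumor below the highest ASC tumor. The log2 fold change was 0.26 in A300 against Control (95% confidence interval 0.05 to 0.47, adjusted p = 0.129) and 0.16 in ASC300 against ASC (interval -0.05 to 0.37, adjusted p = 1). It overlaps Cfap43 on the other strand, and whether the counting used the strand is not stated. Its paralog Gsto2, at 1.26 to 3.76 CPM, had a log2 fold change of 0.32 in A300 (SE 0.34, adjusted p = 0.636).

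The methyltransferase and the membrane carriers of arsenic gave no call. As3mt (ENSMUSG00000003559, chr19:46707458-46741099) was at 13.2, 15 and 12 CPM in Control and 14.9, 15.6 and 13.8 CPM in A300, and between 11.7 and 17.6 CPM in the 6 tumors with ASC. Its log2 fold change was 0.14 in A300 (95% confidence interval -0.24 to 0.51, adjusted p = 0.697) and -0.01 in ASC300 against ASC (interval -0.39 to 0.36). Abcc1 (ENSMUSG00000023088, chr16:14361558-14475737), which exports arsenic bound to glutathione, was at 77.5, 101 and 98 CPM in Control and 91.1, 75.8 and 76.2 CPM in A300. The log2 fold change of Abcc1 in A300 was -0.19 (adjusted p = 0.32). Control replicate 1 lay below the other Control tumors and A300 replicate 1 above the other A300 tumors. Dropping either of them gave -0.28. Each other tumor of these groups, when dropped, left a smaller decrease, between -0.14 (A300 replicate 2) and -0.09 (Control replicate 2). In the ASC300 tumors Abcc1 stayed within 89.6 to 91.1 CPM. Aqp9 (ENSMUSG00000032204, chr9:71110659-71168682, minus strand), a channel that carries arsenite and is known from hepatocytes and neutrophils, was close to the limit of detection. It had 22, 23 and 0 counts in Control, 21, 14 and 20 in A300, 26, 19 and 22 in ASC and 12, 67 and 19 in ASC300. The intervals of its log2 fold change, -1.70 to 2.43 in A300 and -1.71 to 2.33 in ASC300, span a difference of severalfold in either direction. Without Control replicate 3, the tumor at 0 counts, the log2 fold change in A300 was -0.18 (SE 0.71), against 0.37 (SE 0.95) with it. Hepatocyte genes (4 of 8 tested) summed to 1.21 to 14.4 CPM and neutrophil genes (7 of 7 tested) to 8.01 to 20.3 CPM.

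The order of abundance per kilobase of exon ran from the metallothionein Mt2 (median over the 12 tumors 266 CPM per kilobase) through Gstp1 (161), Mt1 (145) and Gsto1 (74.5) to Abcc1 (5.96), As3mt (4.65), Mtf1 (2.41), Slc30a1 (2.15), Mt3 (0.946) and Aqp9 (0.108). The ranges of neighbors in this order overlapped except between Mt1 and Gsto1 (lowest Mt1 92.7, highest Gsto1 88.8), between Gsto1 and Abcc1, and between As3mt and Mtf1. Exon length was the union over all annotated transcripts, 1.246 kb for Mt1, which is its whole gene span, and 0.588 kb for Mt2. The places of Mt1 and Mt2 in the order thus depend on the length used, as their count ratio (Mt2 to Mt1) was 0.766 to 1.03. Mt3, which of the 10 genes had the largest fold change in A300, was present at a small part of the level of Mt1 and Mt2 in every tumor. Mt4, the metallothionein of stratified epithelium, had 0 to 16 counts and did not pass the filter.

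With ASC in the tumor, iAs changed none of the 10 genes past the test. In ASC300 against ASC 0% of all genes were called (edgeR, 307 genes higher and 362 lower at an unadjusted p under 0.05; DESeq2 called 4 up and 7 down), and 0 of the 10 had an unadjusted p under 0.05 or groups that did not overlap (8.07% of all genes, 4.17% higher and 3.91% lower). The log2 fold changes ran from -0.12 for Mt3 to 0.31 for Aqp9, with a median of 0.10 against -0.01 over all genes. The log2 fold change of Mt1 was 0.25 (95% confidence interval -0.18 to 0.68) and that of Mt2 0.21 (interval -0.22 to 0.64), both adjusted p = 1. For Mt3 the interval was -1.16 to 0.92 and for Gstp1 -0.36 to 0.30 around a log2 fold change of -0.03.

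**Figure D3:**
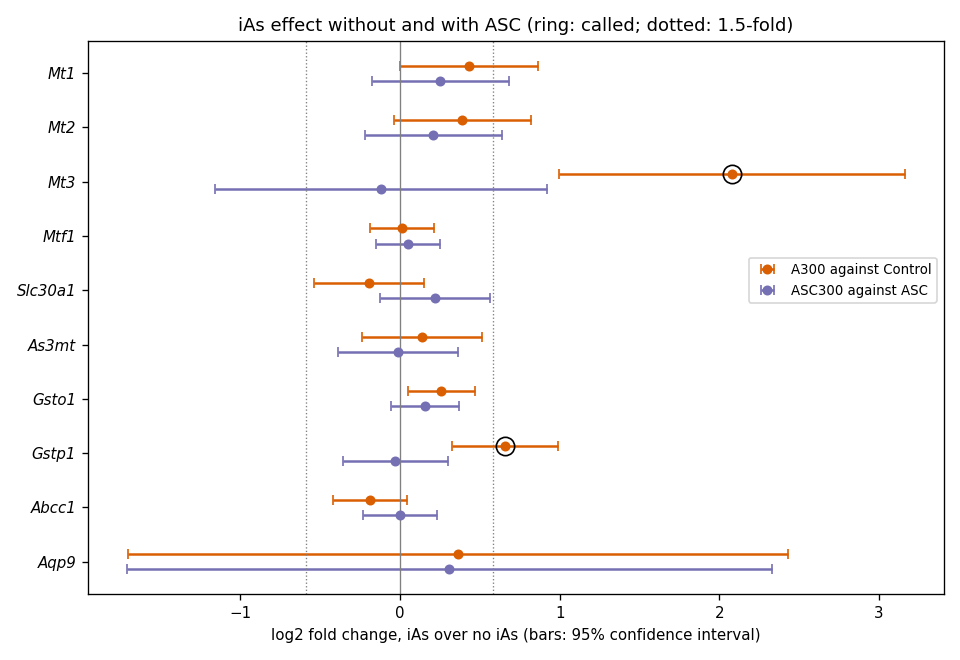
Log2 fold change of each gene with iAs against without, in tumors of TC2Ras cells alone (A300 against Control, orange) and with ASC (ASC300 against ASC, purple). Bars are 95% confidence intervals, rings mark calls and dotted lines 1.5-fold. Mt3 (2.08) and Gstp1 (0.66) are ringed in orange, and in purple both lie near 0.

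Whether iAs acted differently with and without ASC was tested by the interaction. It called 0% of all genes (1473 higher and 1363 lower at an unadjusted p under 0.05; DESeq2 called 29 up and 145 down) and 0 of the 10. The iAs effect on Mt3 was lower with ASC by a log2 difference of -2.20 (SE 0.69, 95% confidence interval -3.69 to -0.71, unadjusted p = 0.00738, adjusted p = 0.309 by edgeR), and that on Gstp1 by -0.69 (SE 0.21, interval -1.15 to -0.22, unadjusted p = 0.00755, adjusted p = 0.309 by edgeR). These were the 2 genes with an unadjusted p under 0.05, and neither passed over all genes. For Mt1 and Mt2 the differences were -0.18 and -0.18, with intervals of -0.79 to 0.43 and -0.79 to 0.43. For Slc30a1, lower with iAs in tumors without ASC and higher with iAs in tumors with ASC, the difference was 0.41 (interval -0.07 to 0.90, adjusted p = 0.432).

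Averaged over both ASC levels, 9 of the 10 genes were higher with iAs and Abcc1 was lower. No gene of the whole table was called (0%; edgeR, 1564 higher and 1761 lower at an unadjusted p under 0.05; DESeq2 called 30 up and 84 down). An unadjusted p under 0.05 was found for Gsto1, Gstp1, Mt3 and Mt1. The log2 fold change was 0.21 for Gsto1 (SE 0.07, adjusted p = 0.201), 0.31 for Gstp1 (SE 0.11, adjusted p = 0.212), 0.98 for Mt3 (SE 0.34, adjusted p = 0.215) and 0.34 for Mt1 (SE 0.14, adjusted p = 0.271). Mt2 had 0.30 (adjusted p = 0.321). For Mt3 the average joins a log2 fold change of 2.08 without ASC and one of -0.12 with ASC. For Gstp1 it joins 0.66 and -0.03. The difference between the 2 iAs effects did not pass for either gene (adjusted p = 0.309 for both by edgeR).

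ASC themselves, averaged over both iAs levels, called 1.45% of all genes (1.36% up and 0.0865% down) and 0 of the 10. Slc30a1 was the 1 gene with an unadjusted p under 0.05 (log2 fold change 0.27, 95% confidence interval 0.02 to 0.51, adjusted p = 0.402). Mtf1 was the 1 gene that was lower with ASC, by a log2 fold change of -0.08 (adjusted p = 0.757). Gsto1, Gstp1, As3mt and Abcc1 had log2 fold changes between 0.06 and 0.08, and Mt1 had 0.02.

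The neighboring pathways were read from 9 lists with 127 genes. Of the zinc transporters, which move zinc out of (Slc30) or into (Slc39) the cytosol, 20 of 24 were tested and 0 were called in A300 against Control. Their median log2 fold change was -0.07, with 9 of 20 higher. Those with the smallest p were Slc30a4, which loads zinc into vesicles (log2 fold change -0.50, adjusted p = 0.0521), Slc30a5 of the early secretory pathway (-0.31, adjusted p = 0.0538) and the importer Slc39a10 (-0.33, adjusted p = 0.111). Of 10 copper genes, all tested, 1 was called: Atox1, the copper chaperone that feeds the copper pumps, rose from 33.1 ± 0.975 CPM in Control to 57.5 ± 8.94 CPM in A300 (SD, n = 3; log2 fold change 0.80, SE 0.15, adjusted p = 0.043). With the GC correction, or with any 1 Control tumor left out, 0 genes of the whole table were called in this comparison, Atox1, Mbp and Stmn2 included. The same held without ASC300 replicate 1 or ASC300 replicate 3, tumors outside this comparison. Ccs, the chaperone of superoxide dismutase, had an adjusted p of 0.0494 at a log2 fold change of 0.49, short of 1.5-fold, and the copper importer Slc31a1 had -0.23 (adjusted p = 0.105).

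The lists around arsenic metabolism gave 1 call, Gstp1 itself. Of the genes for arsenic methylation and methyl donors, 13 of 15 were tested and 0 called, with a median of 0.14. Beside Gsto1, those with the smallest p were methionine synthase Mtr (log2 fold change -0.47, adjusted p = 0.0592) and Mat2a, which makes S-adenosylmethionine (-0.27, adjusted p = 0.157). Of the arsenic transporters, 12 of 15 were tested and 0 called (median -0.10), the smallest p being those of the pumps Abcc4 (-0.24, adjusted p = 0.217) and Abcc3 (0.36, adjusted p = 0.317), followed by Abcc1. Of the glutathione transferases, 22 of 24 were tested and only Gstp1 was called, with a median of 0.10, and microsomal Mgst3 had 0.59 (adjusted p = 0.111). In glutathione synthesis and recycling, 13 of 14 were tested and 0 called. The peroxidases Gpx4 and Gpx1 had log2 fold changes of 0.43 and 0.43 (adjusted p = 0.0744 and 0.0761), and Gclc, the catalytic subunit of the enzyme that limits glutathione synthesis, had -0.39 (adjusted p = 0.0825).

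Genes that arsenite induces in cultured cells were also tested. All 14 passed the filter, 11 were higher in A300 with a median log2 fold change of 0.21, and 0 were called. Hmox1, heme oxygenase and a standard marker of arsenite exposure, was at 122 ± 21.1 CPM in Control and 146 ± 79.6 CPM in A300 (SD, n = 3; log2 fold change 0.26, adjusted p = 0.677). Nqo1, Srxn1, Gclm and Txnrd1, which are Nrf2 targets, had log2 fold changes between -0.11 and 0.02. Slc7a11 of the same list was lower, at 10.7 ± 0.927 CPM in Control and 8.54 ± 2.2 CPM in A300 (SD, n = 3). Hspa1a was at 25 ± 13.4 and 45.7 ± 22.3 CPM, and Hspa1b at 87.7 ± 48.2 and 150 ± 56 CPM, in the same order. The smallest p belonged to the chaperones Dnajb1 (0.53, adjusted p = 0.0538) and Hspb1 (1.97, SE 0.72, adjusted p = 0.122) and to the autophagy receptor Sqstm1 (0.25, adjusted p = 0.149). Of the glucocorticoid-inducible genes, read because glucocorticoids also induce Mt1 and Mt2, 11 of 12 were tested with a median of 0.03 and 0 calls. Cdkn1a, a cell cycle inhibitor, passed the adjusted p (0.043) at a log2 fold change of 0.44, short of 1.5-fold, Dusp1 had 0.46 (adjusted p = 0.0925) and Nfkbia 0.13 (adjusted p = 0.427), and the glucocorticoid markers Fkbp5 and Tsc22d3 had -0.08 and 0.03.

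**Figure D4:**
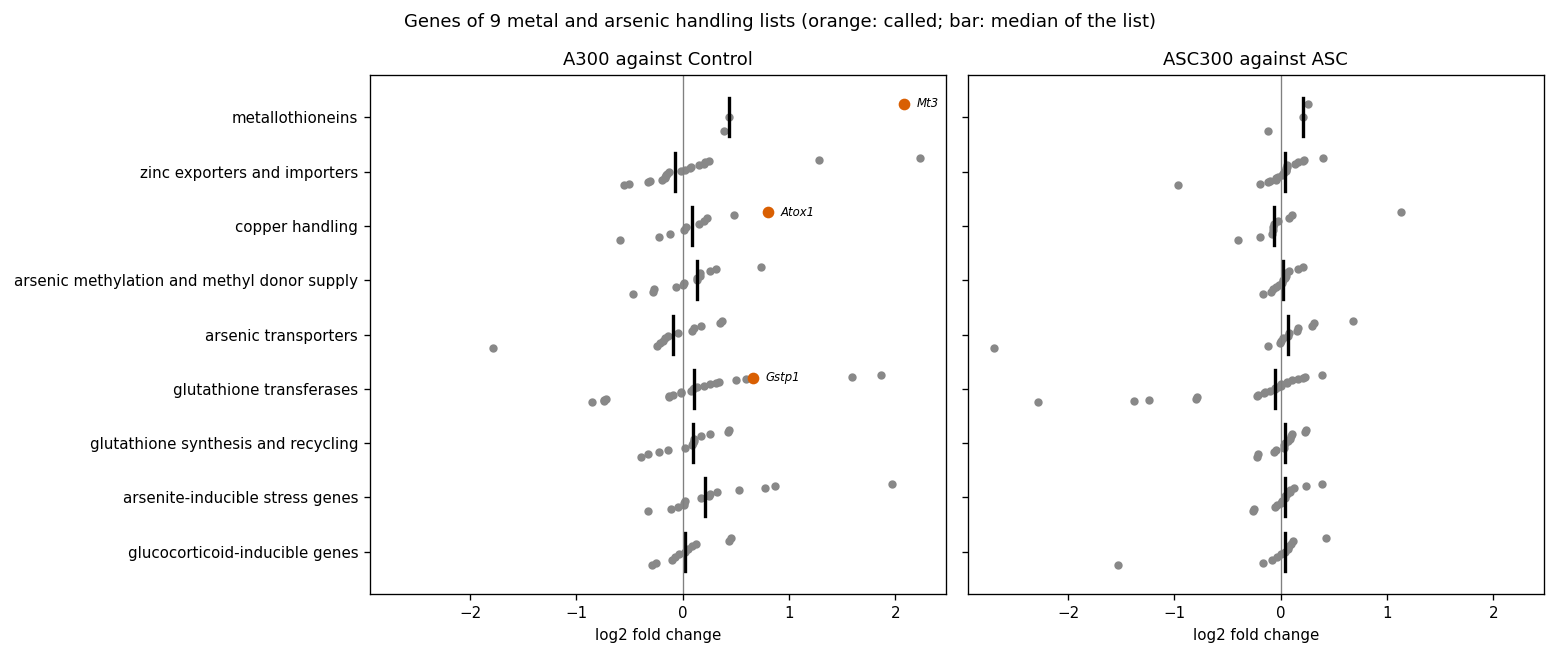
Log2 fold change of the tested genes of 9 lists in A300 against Control (left) and ASC300 against ASC (right), 1 point per gene, with called genes in orange and the median of each list as a black bar. Mt3, Atox1 and Gstp1 are the called genes on the left, and no gene is orange on the right.

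In ASC300 against ASC, 0 genes of the 9 lists were called and every adjusted p was 1. The list medians lay between -0.07 (copper handling) and 0.21 (metallothioneins). In zinc transport, Slc39a13 and Slc30a9 had the smallest p besides Slc30a1 (log2 fold changes 0.21 and 0.16). Among copper genes these were Atp7b (1.13), Sco2 (-0.40) and Cox17 (-0.20), and in methylation, besides Gsto1, Mtr (-0.16) and Pnp (-0.09). For the transporters they were the water and glycerol channels Aqp3 (0.68) and Aqp7 (-2.70) and the glucose carrier Slc2a1 (0.30), and for the transferases Gstk1 (-1.38), Mgst2 (0.39) and Mgst1 (-0.78). In glutathione supply G6pdx (0.23), Gsr (0.09) and Ggt5 (-0.22) came first, among stress genes Gadd45a (-0.26), Nqo1 (0.39) and Gclm (0.09), and among glucocorticoid-inducible genes Errfi1 (0.43, unadjusted p = 0.000676), Zbtb16 (-1.53) and Tsc22d3 (-0.17).

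**Figure D5:**
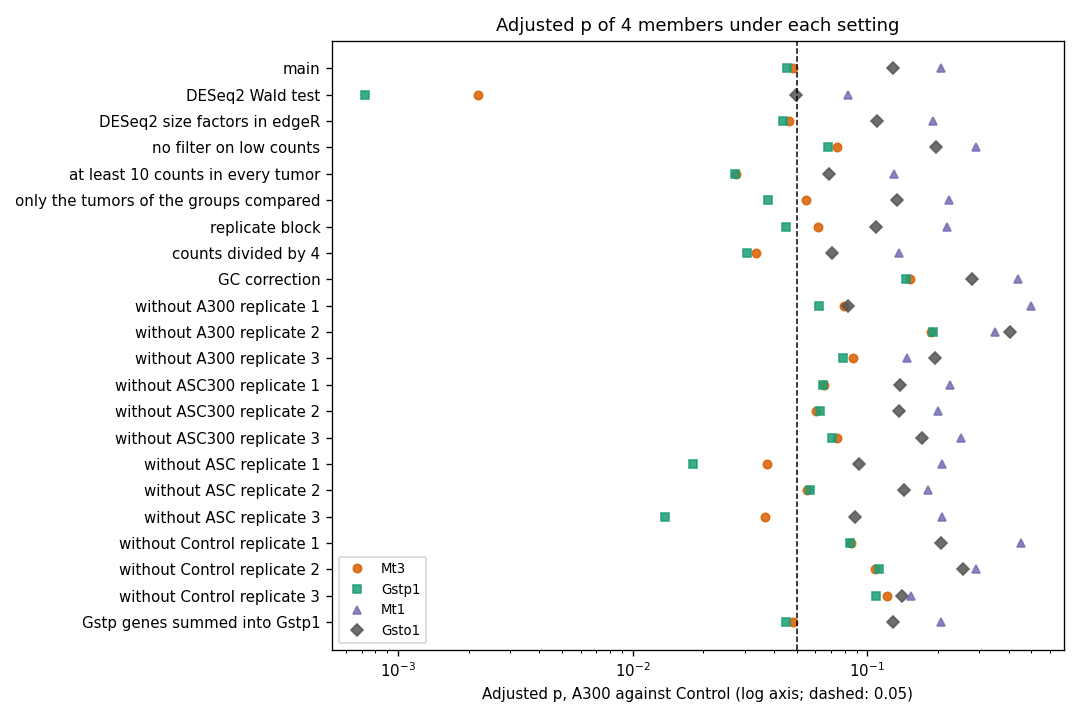
Benjamini-Hochberg adjusted p in A300 against Control (log axis, dashed line at 0.05) for Mt3, Gstp1, Mt1 and Gsto1 under each setting of the analysis (rows). Mt3 and Gstp1 lie near the line in most rows and move together from row to row, from 0.00219 and 0.000725 with DESeq2 to 0.186 and 0.19 without A300 replicate 2.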

How the data were processed

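RNA was measured by paired-end sequencing of poly(A) libraries (TruSeq stranded mRNA). The authors deposited whole-number counts per Ensembl gene, not normalized. The submitters' processing notes name cutadapt 1.1.0, HISAT2 2.0 and StringTie 1.3.4, with DESeq2 and edgeR. The counting step, its strand setting, the genome build and the annotation are not given in the sources used here. Low counts favored multiples of 4 (1137 to 1298 genes per tumor at 4 counts, 380 to 414 at 5), so the reads behind a count are not known, and reads without molecular identifiers are not independent molecules.

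Symbols, coordinates (GRCm38) and exon lengths came from GENCODE M21, and 260 genes had no symbol. The 20818 genes kept by filterByExpr were scaled by TMM and fitted with edgeR 4.0.16 in R 4.3.3 (quasi-likelihood, 1 mean per group, all 12 tumors). Log2 CPM carried a prior count of 2. An exact test of 3 against 3 cannot go below p = 0.1. On simulated data of A300 against Control (20205 genes, 100 changed at each size), 80 of the 4-fold and 49 of the 2-fold changes were called, with 4 false calls. Named genes were the 10 members, each called list gene, the 3 with the smallest p per list and iAs comparison, and the 5 most correlated with Mt1, Mt2 and Mt3, and further list, paralog and marker genes, which were named after their values were seen. Members and lists were chosen with earlier results of these data known. Alternatives were DESeq2 1.42.0, its size factors in edgeR, other filters, the 6 tumors compared, a replicate block, counts divided by 4, a GC correction, each tumor left out and, chosen after seeing the data, the Gstp genes summed. Replicate numbers were not treated as a pairing, except in the replicate block. No sample was left out.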

Additional observations from a re-analysis of the deposited data

How the results depend on the processing

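The 2 calls in A300 against Control lay close to the threshold. Both genes were called with DESeq2 (Wald test), its size factors in edgeR, at least 10 counts in every tumor, counts divided by 4, and the Gstp genes summed. The number called was 0 with no filter on low counts (Mt3 adjusted p = 0.0742, Gstp1 adjusted p = 0.068), 0 with the GC correction, and 1 (Gstp1) with the 6 tumors compared alone, where the adjusted p of Mt3 was 0.055. It ran from 0 to 2 when 1 tumor was left out. These fits tested 21664 to 21837 genes, and the cause of the lost calls was not tested. Over all genes the calls in this comparison, 146 up and 74 down, became 495 and 321 with DESeq2 and 188 and 60 with its size factors. They were 339 and 115 with at least 10 counts, 354 and 106 with counts divided by 4, 122 and 34 with the 6 tumors alone, and 8 and 0 without the filter. They fell to 0 and 0 with the GC correction and without any 1 Control tumor. The same held without ASC300 replicate 1 or ASC300 replicate 3, which are not in this comparison. Without A300 replicates 1, 2 and 3 in turn they were 90 and 32, 0 and 1, and 1 and 1. Without ASC replicate 1 they were 279 and 115, and without ASC replicate 3 they were 234 and 165. The other 4 comparisons called 0 of the 10 genes under every alternative. Mt3 rested on 11 to 112 and Aqp9 on 0 to 67 counts per tumor. Aqp9 was not tested with at least 10 counts in every tumor or with counts divided by 4.

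Same-numbered tumors did not deviate together (correlations of deviations -0.124 to 0.172, 2 of 18 over 0.1), so the numbers are not a pairing. With the replicate block, 1 of the 10 genes (Gstp1) was called in A300 against Control, and the adjusted p of Mt3 was 0.0617. The block called 134 genes up and 61 down over all genes.

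Reversals concerned values near 0. Abcc1 in ASC300 against ASC (log2 fold change 0.001) became -0.005 with DESeq2, -0.010 with its size factors, -0.001 with no filter, -0.008 with at least 10 counts, -0.007 with the 6 tumors alone and -0.009 with counts divided by 4. The difference of the iAs effect for Mtf1 (0.038) became -0.008 with at least 10 counts and -0.017 with counts divided by 4. With the GC correction As3mt in ASC300 against ASC was 0.004 and Mt1 with ASC over both iAs levels -0.012. The correlation of Mt2 and Slc30a1 was -0.142 with the group mean taken off, and that of Mt1 and Slc30a1 0.030 with the 2 farthest tumors left out.

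Leaving out 1 tumor at a time turned the sign of some small values. In A300 against Control the range was -0.014 to 0.046 for Mtf1 and -0.184 to 0.805 for Aqp9. In ASC300 against ASC it was -0.034 to 0.045 for Abcc1, -0.164 to 0.126 for As3mt, -0.205 to 0.210 for Gstp1, -0.390 to 0.229 for Mt3 and -0.788 to 0.716 for Aqp9. Over both ASC levels iAs gave -0.047 to 0.094 for Slc30a1, -0.002 to 0.143 for As3mt and -0.198 to 0.557 for Aqp9. The difference of the iAs effect was -0.372 to 0.001 for Mt1, -0.360 to 0.076 for Mt2, -0.011 to 0.061 for Mtf1 and -1.18 to 0.492 for Aqp9. ASC over both iAs levels gave -0.064 to 0.110 for Mt1 and -0.035 to 0.168 for Gstp1. Correlations ran from -0.330 to 0.154 for Mt1 and Mtf1, -0.241 to 0.058 for Mt1 and Slc30a1 and -0.052 to 0.186 for Mt2 and Slc30a1, and from 0.912 to 0.976 for Mt1 and Mt2.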
